A study of Mus musculus with 9 samples.

Results

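Transcripts of 9 genes that dispose of superoxide and peroxide were followed in mouse oocytes: the glutathione peroxidases Gpx1 and Gpx4, the glutathione synthesis genes Gclc, Gclm and Gss, the glutathione reductase Gsr, the superoxide dismutases Sod1 and Sod2, and catalase, Cat. They were chosen by symbol, as 9 of the 24736 genes in the tables, and all 9 passed the filter on low counts. The 9 libraries came from 9 female ICR mice, an outbred strain, labelled as 4 to 5 weeks old, with 15 oocytes pooled per mouse and 3 mice per group. Control mice were not stressed. Stress mice met 1 stressor a day, such as tail pinch, cold swimming, food or water deprivation, wet bedding, constant light or restraint, for 6 weeks. Mice of the KYZY group had the same 6 weeks of stressors and then a decoction of the herbal recipe Kai Yu Zhong Yu by gavage, 0.1 ml daily for 4 weeks. All mice, controls included, were superovulated with 7.5 IU of PMSG (a gonadotropin from mare serum) and 7.5 IU of hCG. Oocytes of the second meiotic metaphase were freed from their cumulus cells by hyaluronidase 16 hours after hCG. The labels name no stressed mice given a vehicle for the same 4 weeks, and they describe the sequencing of the KYZY libraries in other words than that of the control and stress libraries. Neither point can be told apart from the recipe.

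Superoxide leaks from the respiratory chain. Sod2 in the mitochondrial matrix and Sod1 in the cytosol turn it into hydrogen peroxide, which catalase breaks down in peroxisomes. Glutathione peroxidases reduce peroxides at the cost of glutathione; Gpx1 acts on hydrogen peroxide and Gpx4 on lipid peroxides in membranes. Glutathione is built from glutamate, cysteine and glycine by glutamate-cysteine ligase, with Gclc as its catalytic and Gclm as its modifier subunit, and then by glutathione synthetase, Gss. Gsr returns oxidised glutathione to its reduced form with NADPH. The metaphase II oocyte is known for a large glutathione store, which it builds during maturation and uses after fertilisation. Its transcription is silent, so its mRNAs were made earlier, during growth.

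Gpx1 and Gpx4 are selenoproteins: an in-frame TGA codon, otherwise a stop, is read as selenocysteine, the residue that reduces the peroxide. Both coding sequences held exactly 1 in-frame TGA before the stop codon, at codon 47 of Gpx1 and codon 129 of the longest Gpx4 form, and the other 7 genes held 0. The stretches around these codons are shown because they set the peroxidases apart from the other 7 genes. They are reference sequence of GENCODE M21 transcripts (GRCm38), 63 bases each, with the selenocysteine codon in capitals.
Gpx1: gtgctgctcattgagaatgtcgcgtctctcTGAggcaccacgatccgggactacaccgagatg
Gpx4: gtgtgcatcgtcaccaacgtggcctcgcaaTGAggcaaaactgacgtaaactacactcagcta

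The 250 bases before an annotated transcript start are shown for Sod1, Gclm and Cat. By mean level, Sod1 was the most abundant of the 9 transcripts and Cat the least. Gclm was the most abundant of the glutathione synthesis genes. The sequences are from a table of RefSeq promoters (GRCm38.p6), in which 7 of the 9 genes were matched (not Gclc and Gsr). Positions are counted from the transcript start used in that table. For Gclm that start lies inside the RefSeq gene, which begins at 122245487, so the end of its window is part of the gene span. Capitals mark 4 motifs searched on both strands of the window from 250 bases before to 50 bases after the start. These are TGACNNNGC (the core of the antioxidant response element, bound by NRF2), GGGCGG (the GC box), CCAAT and TATAAA.
Sod1 (chr16:90220512-90220761, plus strand): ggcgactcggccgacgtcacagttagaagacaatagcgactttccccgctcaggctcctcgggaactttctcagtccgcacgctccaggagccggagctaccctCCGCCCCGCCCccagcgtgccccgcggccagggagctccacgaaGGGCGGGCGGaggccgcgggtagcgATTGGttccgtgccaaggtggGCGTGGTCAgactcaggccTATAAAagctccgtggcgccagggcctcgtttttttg
Gclm (chr3:122245307-122245556, plus strand): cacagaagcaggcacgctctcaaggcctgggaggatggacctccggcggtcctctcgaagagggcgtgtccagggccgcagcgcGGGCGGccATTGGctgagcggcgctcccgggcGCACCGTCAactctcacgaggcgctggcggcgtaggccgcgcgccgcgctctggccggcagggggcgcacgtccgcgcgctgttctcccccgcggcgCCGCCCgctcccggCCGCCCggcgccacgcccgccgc
Cat (chr2:103485154-103485403, minus strand): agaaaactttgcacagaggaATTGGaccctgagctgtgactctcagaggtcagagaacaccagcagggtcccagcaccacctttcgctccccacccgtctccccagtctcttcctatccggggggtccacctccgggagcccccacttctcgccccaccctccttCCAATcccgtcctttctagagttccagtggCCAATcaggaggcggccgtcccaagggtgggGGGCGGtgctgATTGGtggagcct

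Of the 7 matched genes, Sod1 and Gclm had a TGACNNNGC match, at -56 and -134 from the start; such a match was present in 12.4% of 32851 promoters of that length. Sod1 also held the one TATAAA among these 7 genes, at -37, against 13.6% of all promoters, and 4 GGGCGG matches, which 35.7% of promoters held at least once. The window of catalase held 4 matches to CCAAT, a motif that 37.4% of promoters held, along with 1 GC box. The first 250 bases were 66.4% G and C in Sod1, 78.4% in Gclm and 42.0% in Gpx1. These are matches of letters, and binding was not measured.

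On GRCm38, RefSeq places Gpx1 on chromosome 9 (108339080 to 108340342), Gclc on chromosome 9 (77754535 to 77794489), Gpx4 on chromosome 10 (80047166 to 80056439) and Gclm on chromosome 3 (122245487 to 122267215). Gss lies on chromosome 2 (155563181 to 155592810), Cat on chromosome 2 (103453904 to 103485153) and Gsr on chromosome 8 (33653238 to 33698162). Sod1 lies on chromosome 16 (90220762 to 90226333) and Sod2 on chromosome 17 (13007839 to 13018119). The library kit keeps no strand, and 2 members overlap a protein-coding gene on the other strand: Sod1 overlaps Scaf4 (35.7 to 74.1 CPM) and Gss overlaps Acss2 (0.00 to 1.12 CPM). Their reads there cannot be told apart. Gss also overlaps the antisense genes Gssos1 and Gssos2. Gclm overlaps a processed transcript on the other strand, Gm17494, and a pseudogene, Gm6061. Gpx4 has a named pseudogene, Gpx4-ps2. None of these has a row of its own in the tables.

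Total counts were 46324094 to 106990821 per library. Levels are in CPM, counts scaled by library size with TMM factors. One read pair appeared to be worth about 4 counts, or 0.0349 to 0.0816 CPM, and 3 read pairs (12 counts) were taken as the floor. All 12 oocyte markers were above 0 in every library, with summed levels of 20812 to 38400 CPM. Tnfaip6, made by cumulus cells to link their hyaluronan matrix, was at 0 in 5 libraries. The others held 1.94 CPM (control 3), 5.14 (stress 3), 16.5 (KYZY 2) and 10.4 (KYZY 3). Of 28 cumulus and granulosa markers, 9 to 25 were above 0 in control, 11 to 23 in stress and 15 to 26 in KYZY libraries, with summed levels of 622 to 900, 699 to 1430 and 765 to 1780 CPM. Serpine2 and Sdc1 made up most of these sums except in KYZY 3, where they had 383 and 209 of 1287 CPM. Without them the sums were 21.2 to 40.4 CPM in the 5 libraries at 0 for Tnfaip6, 79.1 in stress 3, 370 in control 3, 371 in KYZY 2 and 694 in KYZY 3. The cumulus matrix gene Ptx3 was at 0 in the same 5 libraries as Tnfaip6. Other markers were above 0 in some of those 5: Has2, which makes hyaluronan, had 4 to 8 counts in stress 1, stress 2 and KYZY 1, under the floor, and Cyp11a1, the first enzyme of steroid synthesis, had 0.479 to 10.6 CPM. Summed blood and immune markers (20 genes) were 0.562 to 13.4 CPM in control, 0.969 to 5.77 in stress and 0.805 to 75.9 in KYZY. Summed oviduct markers (16 genes) were 306 to 512, 347 to 439 and 286 to 474 CPM, and stroma and endothelium markers (18 genes) 108 to 201, 103 to 156 and 122 to 212 CPM. Of the oviduct markers, 7 to 15 were above 0 in control, 6 to 13 in stress and 9 to 15 in KYZY libraries. Their sum did not follow that number. Control 1 had 7 above 0 and a sum of 512 CPM, while control 3 and KYZY 3 had 15 and sums of 306 and 286 CPM.

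Per transcript length, the 9 genes spanned a wide range. Levels per kb are CPM divided by the length of the longest GENCODE M21 transcript with a RefSeq entry. Sod1 stood at 135 ± 33.5 CPM per kb (SD, n = 9 libraries), above every other member in all 9 libraries, with no overlap between its range and the next. Gclm followed at 7.71 ± 2.36 CPM per kb, Gpx4 at 5.19 ± 3.10, Gpx1 at 4.87 ± 4.16 and Sod2 at 4.51 ± 1.17. The ranges of these 4 overlapped, so their order is not fixed by these libraries: Gpx4 was above Gpx1 in 6 of 9 libraries, and Gpx1 above Sod2 in 5. Sod2 was above Gsr in 9 of 9 libraries with no overlap of ranges, while the lowest Gpx1 library (1.81) lay below the highest of Gsr (2.08). Gsr stood at 0.840 ± 0.582, Gss at 0.586 ± 0.397, Gclc at 0.357 ± 0.101 and Cat at 0.287 ± 0.291 CPM per kb, again with overlapping ranges. By coding length in place of transcript length, which was chosen after the values were seen, Sod2 moved above both peroxidases, at 39.5 CPM per kb, against 8.62 for Gpx1 and 6.77 for Gpx4; the annotated Sod2 transcript of 5.861 kb is mostly untranslated.

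**Figure D1:**
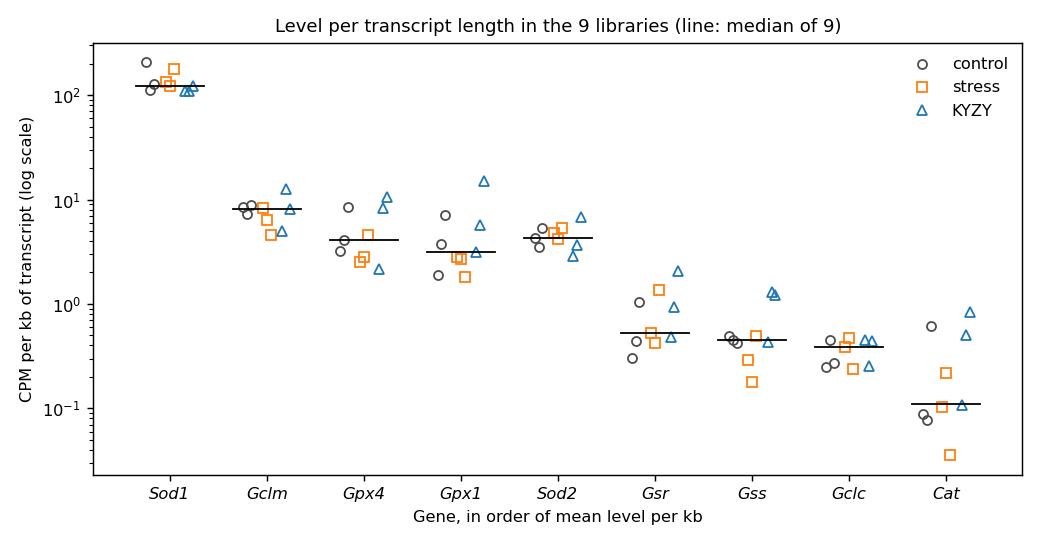
Level of each gene per kb of transcript (log scale) in the 9 libraries, by group; circles are control, squares stress and triangles KYZY, and the line is the median of 9. Sod1 lies between 109 and 206 CPM per kb, clear of all others. Cat reaches down to 0.0356 in stress 3, where it held 6 counts, under the floor of 12 counts.

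The pairs of enzymes that work together differed in level by unequal amounts. Gclm exceeded its catalytic partner Gclc 18.9-fold per kb of transcript at the median, with a range over libraries from 11.2 in KYZY 1 to 49.5 in KYZY 2; by coding length the median was 71.5 and the range 42.3 to 187. Sod1 exceeded Sod2 by 18.1-fold in KYZY 3 and by 47.9-fold in control 1, the extremes; by coding length the range was 2.85 to 7.54. Gpx4 over Gpx1 had a median ratio of 1.10 (0.687 to 2.50) by transcript length and 0.814 (0.507 to 1.85) by coding length. Which of them was higher at the median thus depended on the length used. The coding length of Gpx4 was that of its longest form, 762 bases, and other coding forms were not tried. Sod1, Sod2 and Gclm together made up 81.0% to 96.2% of the summed CPM of the 9 genes.

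Gpx1 had the largest SD of the members on the scale log2(CPM + 1), 0.82 over the 9 libraries, a scale that compresses scarce genes. Its highest level was 8.26 times its lowest, against 23.7 times for Cat. The lowest Cat value, 6 counts in stress 3, lay under the floor of 12 counts. Gpx1 was at 2.03, 3.98 and 7.62 CPM in control 1, 2 and 3. It was at 2.99, 2.88 and 1.94 in stress 1, 2 and 3. In KYZY 1, 2 and 3 it was at 3.39, 6.15 and 16.0. All 3 KYZY libraries lay above all 3 stress libraries, and control overlapped both. KYZY exceeded stress by 1.71 on the log2 scale (SE 0.616, 95% interval 0.32 to 3.09, unadjusted p = 0.0210, edgeR quasi-likelihood test, adjusted p = 0.935). Stress against control was at -0.80 (SE 0.604, adjusted p = 1.00). In pooled oocytes with traces of other cells, fewer cells of a type and less RNA per cell cannot be told apart.

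Gpx4, the lipid peroxide reductase, was at 3.21, 4.08 and 8.42 CPM in control 1, 2 and 3, at 2.51, 2.79 and 4.50 in stress, and at 2.16, 8.19 and 10.6 in KYZY. Control 3, stress 3 and KYZY 3 were the highest of their groups, KYZY 1 was the lowest of all 9, and the groups overlapped. KYZY against stress had a log2 value of 1.09 (SE 0.566, 95% interval -0.17 to 2.36), and stress against control at -0.68 (-1.94 to 0.58).

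Gclc, the catalytic subunit of the first step of glutathione synthesis, lay between 0.822 CPM in stress 3 and 1.62 in stress 2, so that both extremes fell in one group. Group means were 1.11 ± 0.374 CPM in control, 1.25 ± 0.403 in stress and 1.30 ± 0.378 in KYZY (SD, n = 3). The log2 difference between KYZY and stress was 0.05, with a 95% interval of -0.95 to 1.05. Its modifier subunit Gclm was at 47.0, 40.6 and 49.3 CPM in control, 46.3, 35.9 and 25.4 in stress, and 27.9, 69.9 and 45.2 in KYZY. Control was the tightest group (45.7 ± 4.49 CPM), while the stress libraries (35.9 ± 10.5) overlapped its range and the KYZY libraries (47.7 ± 21.1) lay on both sides of it. The log2 fold change was -0.35 for stress against control (95% interval -1.07 to 0.37) and 0.41 for KYZY against stress (-0.31 to 1.14).

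Gss, the enzyme of the second step, was at 0.959, 0.888 and 0.833 CPM in control, 0.564, 0.349 and 0.962 in stress, and 0.853, 2.58 and 2.37 in KYZY. KYZY 2 and KYZY 3 lay above the other 7 libraries, and KYZY 1 lay inside the range of stress. KYZY against stress had a log2 value of 1.63 (SE 0.545, 95% interval 0.42 to 2.84, unadjusted p = 0.0132, edgeR adjusted p = 0.935). It held the lowest p of the 9 genes, rank 95 of 13890. Against control, KYZY was at 1.11 (95% interval -0.08 to 2.31). These values rest on 40 to 176 counts per library, so on few read pairs. Acss2, the overlapping protein-coding gene, was at 0.910 and 1.12 CPM in KYZY 2 and KYZY 3. It was at 1.02 in control 3, and at 0.00 to 0.544 in the others. The part of Acss2 and of the antisense genes Gssos1 and Gssos2 in the Gss counts was not tested.

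Gsr, which recycles oxidised glutathione, was at 0.810, 1.17 and 2.76 CPM in control, 1.42, 1.12 and 3.62 in stress, and 1.28, 2.48 and 5.57 in KYZY. Control 3, stress 3 and KYZY 3 were the highest of their groups, and the SD within a group was 65.8% to 71.2% of the mean. The log2 fold changes were 0.37 for stress against control, 0.60 for KYZY against stress and 0.98 for KYZY against control, with SEs of 0.664 to 0.669. Single libraries moved them: KYZY against control was at 0.26 without KYZY 3 and at 1.68 without control 3.

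Sod1 had a highest level 1.88 times its lowest, the smallest such ratio of the 9 genes; on the log2(CPM + 1) scale Gclc had the smallest SD (0.23, against 0.32 for Sod1). It was at 132, 71.7 and 82.5 CPM in control, 84.9, 77.5 and 113 in stress, and 70.9, 70.2 and 78.1 in KYZY. Control 1 and stress 3 were the highest libraries, and the KYZY libraries stayed within 73.1 ± 4.39 CPM. The 95% intervals were the narrowest of the 9 genes: -0.63 to 0.51 for stress against control, -0.90 to 0.24 for KYZY against stress and -0.96 to 0.19 for KYZY against control, on the log2 scale. In this fit of all 9 libraries, a change of 2-fold in either direction lay outside all 3 intervals, narrowly so for KYZY against control. With the offset for transcript length, KYZY against stress was at -0.49. Without control 2, KYZY against control was at -0.54. No intervals were computed for those fits, so a 2-fold change is not excluded there.

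Sod2, the manganese enzyme of mitochondria, was at 25.2, 20.4 and 31.0 CPM in control, 27.7, 24.8 and 31.2 in stress, and 16.7, 21.4 and 39.5 in KYZY. KYZY held both the lowest and the highest library, and the means of 25.6 ± 5.29, 27.9 ± 3.25 and 25.8 ± 12.0 CPM were within 1 SD of each other. The log2 fold change was 0.13 for stress against control (95% interval -0.55 to 0.81) and -0.11 for KYZY against stress (-0.79 to 0.57).

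By mean level over the 9 libraries, Cat was the scarcest of the 9 transcripts. Cat lay above Gclc in control 3, KYZY 2 and KYZY 3. It was at 0.231, 0.201 and 1.60 CPM in control, 0.270, 0.567 and 0.0931 in stress, and 0.284, 1.31 and 2.20 in KYZY. Control 3, KYZY 2 and KYZY 3 stood at 1.31 CPM or more, and the other 6 libraries at 0.567 or less. Stress 3 held 6 counts, under the floor of 12 counts (0.186 CPM in that library), and control 1 held 14. KYZY against stress had a log2 value of 2.01 (SE 1.05, 95% interval -0.31 to 4.33), and stress against control at -1.11 (-3.38 to 1.16). A difference of 4-fold lay inside both intervals.

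**Figure D2:**
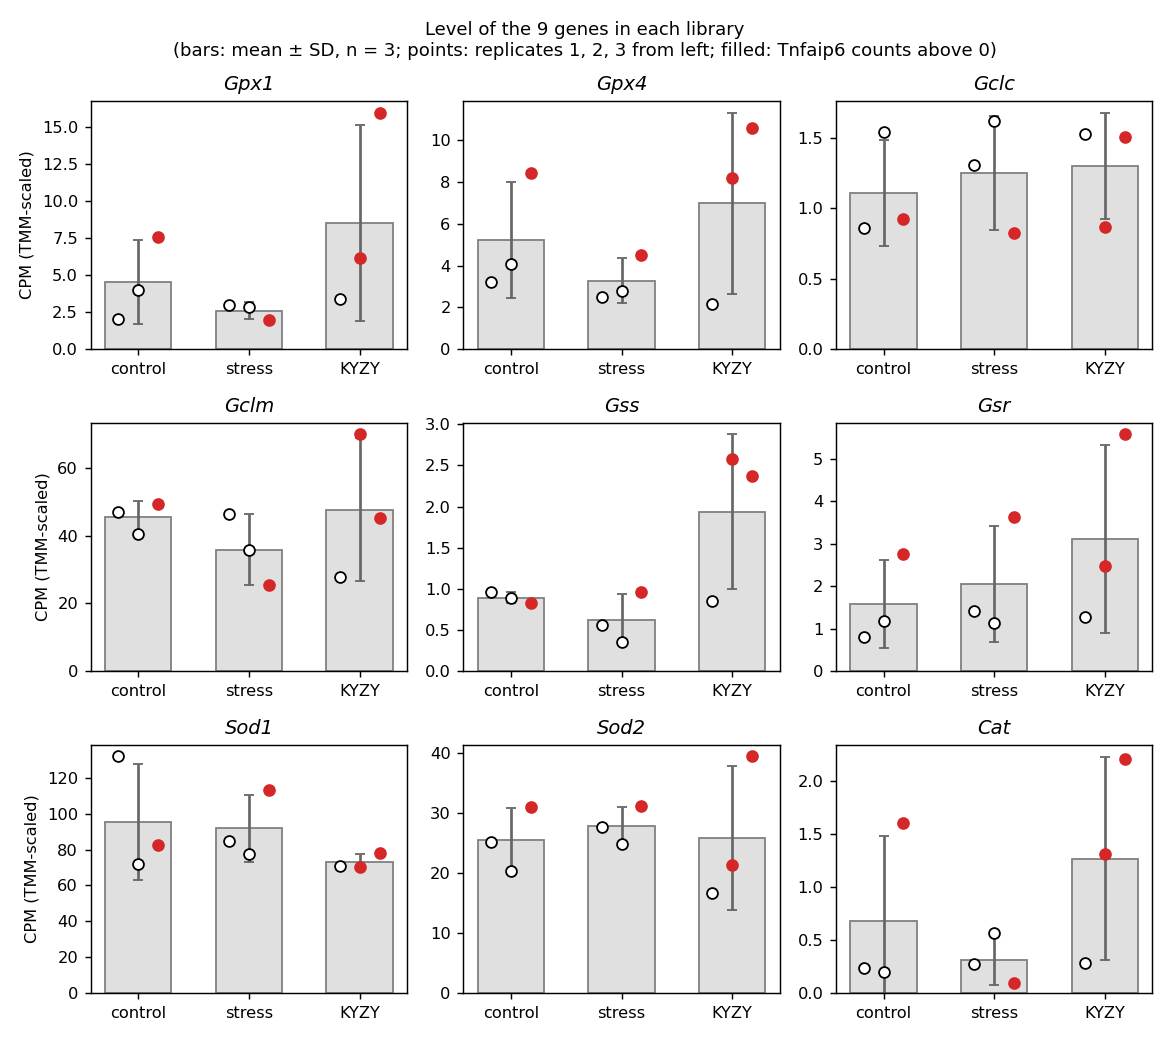
CPM of the 9 genes in each library, with bars for group means and SD (n = 3) and points for replicates 1, 2 and 3 from left; filled points are the 4 libraries with Tnfaip6 counts. The filled points lie above all open ones for Gpx4 and Gsr, while Gclc and Sod1 show no such order.

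The design implies 3 comparisons between pairs of groups and 1 over all of them, and no member passed the edgeR test (Benjamini-Hochberg adjustment over 13890 genes) in any of the 4. In stress against control 0 of 9 passed, as did 0% of all genes, and 0 of 9 had an unadjusted p under 0.05, against 2.69% of all genes. The fold change was negative for 6 members and positive for 3, with a median log2 value of -0.35, beside -0.03 over all genes. The groups overlapped for all 9, where 3.51% of all genes were higher and 4.38% lower without overlap (7.88% in all). In KYZY against stress 0 of 9 passed, beside 0% of all genes. Gpx1 and Gss (2 of 9) had an unadjusted p under 0.05, where 3.98% of all genes did. There 7 members were positive and 2 (Sod1 and Sod2) negative, with a median of 0.60 beside 0.01, and 50.8% of all genes were positive. Groups did not overlap for 1 member, Gpx1, which was higher; 3.76% of all genes were higher and 5.44% lower without overlap (9.19% in all). KYZY against control gave 0 of 9 (0% of all genes), 0 with an unadjusted p under 0.05 (2.74% of all genes), and 8 positive and 1 negative with a median of 0.41, beside -0.0032 over all genes. Of all genes 49.7% were positive in KYZY against control. No member's groups were apart there, where 2.43% of all genes were higher and 4.79% lower without overlap (7.23% in all). The test over the 3 groups gave 0 of 9 (0% of all genes), with 1 member, Gss, at an unadjusted p of 0.0294 in edgeR's fit (edgeR adjusted p = 1.00), beside 2.41% of all genes. Neither the DESeq2 Wald test nor limma voom with library weights called a member in the comparisons they were run on. The 3 pairwise comparisons share groups, so that a low stress group alone gives a negative first and a positive second value.

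**Figure D3:**
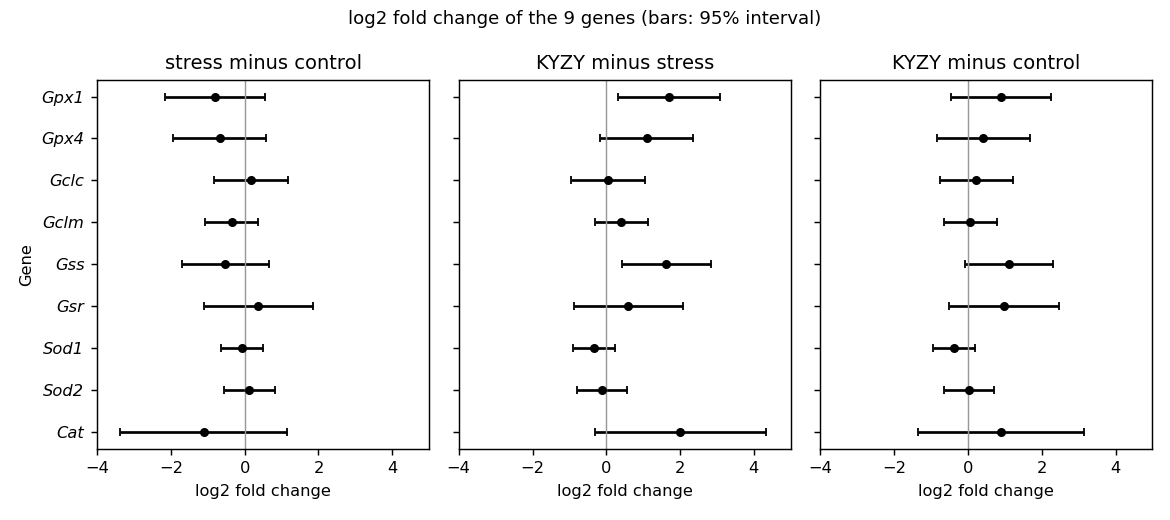
log2 fold change of each gene in the 3 pairwise comparisons, with 95% intervals from the edgeR fit of all 9 libraries. The intervals of Gpx1 and Gss exclude 0 in KYZY minus stress before adjustment over 13890 genes, and no others do.

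The 4 libraries with Tnfaip6 counts, 1 control, 1 stress and 2 KYZY, are not a group of the study, and they are set beside the other 5 as ranges, with no test. Gpx4 was at 4.50 to 10.6 CPM with and 2.16 to 4.08 without Tnfaip6 counts. Gsr was at 2.48 to 5.57 with and 0.810 to 1.42 without. For these 2 of 9 members the ranges did not overlap, both higher with Tnfaip6 counts, as held for 9.94% of all genes kept, with 7.09% lower (17.0% in all). Cat was at 1.31 to 2.20 CPM in 3 of the 4 but at 0.0931, the lowest of all, in stress 3. Gpx1 likewise was at 6.15 to 16.0 in 3 of the 4 and at 1.94, also its lowest, in stress 3, beside 2.03 to 3.98 in the other 5. Cyp11a1 had 14.7 CPM in stress 3, against 228 (control 3), 165 (KYZY 2) and 428 (KYZY 3), and up to 10.6 CPM in the 5 libraries without Tnfaip6 counts; its part in these levels was not tested. Sod1 (70.2 to 113 with, 70.9 to 132 without), Gclc (0.822 to 1.51 and 0.860 to 1.62), Gclm (25.4 to 69.9 and 27.9 to 47.0) and Sod2 (21.4 to 39.5 and 16.7 to 27.7) overlapped, as did Gss (0.833 to 2.58 and 0.349 to 0.959). The 4 libraries of highest summed cumulus and granulosa level were the same 4.

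Without these 4 libraries the fit keeps 2 control, 2 stress and 1 KYZY library with 2 residual degrees of freedom, and KYZY 1 is assumed to vary like the others. In KYZY against stress, Gpx1 was then at a log2 fold change of 0.23, Gpx4 at -0.28, Cat at -0.54, Gclm at -0.54 and Gss at 0.92. Sod2 was at -0.64, Sod1 at -0.18, Gclc at 0.08 and Gsr at 0.03. In stress against control Gpx1 was at -0.02 and Gpx4 at -0.44, while Cat was at 0.96 (adjusted p of 0.822 to 1.00).

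Transcript length moved with the fold changes of all genes in stress against control and in KYZY against stress. In KYZY against control the medians of the length classes lay between -0.03 and 0.08. Genes of under 1 kb (921 genes, among them Sod1 and Gpx4) had a median log2 fold change of -0.27 in stress against control and 0.26 in KYZY against stress. Those of over 4 kb (4413 genes, among them Gclm and Sod2) had medians of 0.04 and -0.05. Sod1, at 0.641 kb the shortest member, lay at -0.06 and -0.33, so not on the side of its length class in KYZY against stress. With an offset for transcript length, KYZY against stress gave 1.59 for Gpx1, 0.97 for Gpx4, 1.65 for Gss, 2.03 for Cat and -0.49 for Sod1, with edgeR adjusted p of 0.965.

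**Figure D4:**
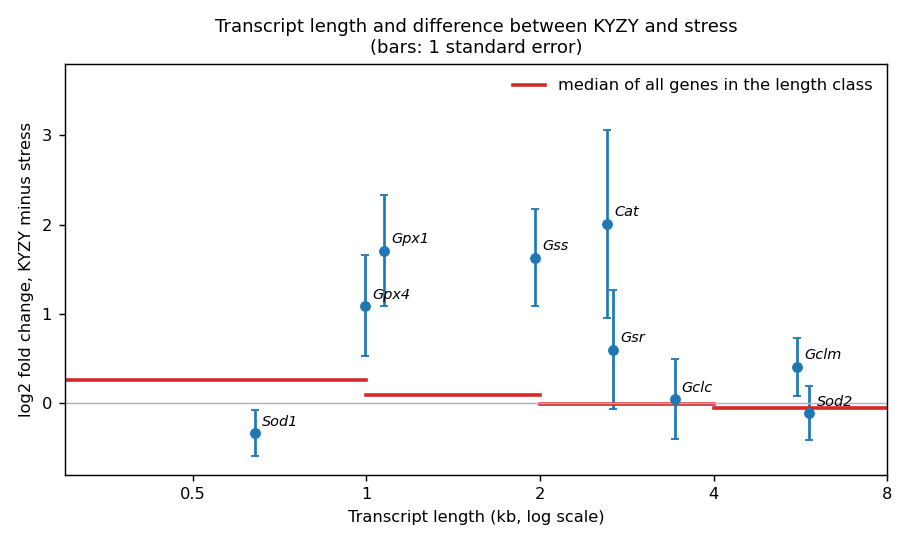
log2 fold change of KYZY minus stress against transcript length (log scale) for the 9 genes, with bars of 1 standard error; red lines are the medians of all genes in 4 length classes, from 0.26 under 1 kb to -0.05 over 4 kb. Gpx1, Gss and Cat lie well above the line of their class, and Sod1 lies below it.

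Around the 9 genes, 117 genes of 6 lists were examined, of which 100 passed the filter and 0 passed the edgeR test in any pairwise comparison (1, 3 and 3 had an unadjusted p under 0.05, in the order stress against control, KYZY against stress, KYZY against control). Of 15 genes for the synthesis, supply and breakdown of glutathione, 7 were higher and 8 lower in stress than in control, and 7 higher and 8 lower in KYZY than in stress, with a median of -0.01 in the latter. Its genes of highest CPM were Ggct, which releases amino acids from glutathione breakdown products (1040 ± 378 CPM in control, 1099 ± 342 in stress, 1093 ± 77.1 in KYZY), and Slc3a2, the heavy chain of the cystine transporter (227 ± 82.3, 244 ± 81.8 and 246 ± 63.6 CPM).

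Over all genes the medians were -0.03 in stress against control and 0.01 in KYZY against stress. Of 32 other glutathione peroxidases, transferases, glutaredoxins and related enzymes, 24 had negative fold changes in stress against control (median -0.29). In KYZY against stress 23 of them had positive ones (median 0.80). Those of highest CPM were Glrx, a glutaredoxin (460 ± 131, 505 ± 22.3 and 394 ± 118 CPM in control, stress and KYZY), and Mgst3, a microsomal transferase (183 ± 9.69, 165 ± 24.9 and 157 ± 26.5 CPM). Neither had the sign of the list's median in KYZY against stress, at -0.36 and -0.07. Tnfaip6 had counts in 2 of 3 KYZY, 1 of 3 stress and 1 of 3 control libraries, and the part of other cells in the values of this and the following lists was not tested.

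NADPH, which Gsr consumes, is supplied by several dehydrogenases. Me1, malic enzyme, was at 1182 ± 208 CPM in control, 1026 ± 115 in stress and 1331 ± 48.3 in KYZY, and G6pdx, which opens the pentose phosphate pathway, at 872 ± 320, 977 ± 80.3 and 854 ± 310. Of 15 such genes 9 were lower in stress than in control (median -0.17) and 10 higher in KYZY than in stress (median 0.10). Over all genes 7498 of 13890 were lower in stress than in control, and 50.8% were higher in KYZY than in stress. Among 12 partners of the dismutases and catalase, 9 were lower in stress than in control (median -0.13) and 8 higher in KYZY than in stress (0.18). Highest in CPM were Pex13 and Pex14, of the peroxisomal import pore that takes up catalase. Pex13 was at 238 ± 26.4, 231 ± 97.4 and 281 ± 11.7 CPM, and Pex14 at 27.3 ± 6.60, 26.2 ± 6.82 and 21.6 ± 6.25 CPM.

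The 15 kept genes of NRF2 control and its targets had 13 negative fold changes in stress against control (median -0.28) and 10 positive ones in KYZY against stress (median 0.56). Rbx1, a subunit of the ligase that degrades NRF2, was at 148 ± 58.2, 163 ± 29.2 and 145 ± 42.0 CPM. Ftl1, the ferritin light chain, had 14.2 to 35.9 CPM where Tnfaip6 had none. Its level was 62.7 CPM in stress 3, 235 in control 3, 305 in KYZY 2 and 422 in KYZY 3. Of 11 genes for selenoprotein synthesis, 6 were higher in stress than in control (median 0.05) and 6 higher in KYZY than in stress (median 0.03). Sephs2, which makes the selenium donor, was at 188 ± 25.0, 208 ± 21.9 and 196 ± 42.4 CPM, and Eefsec, the elongation factor for selenocysteine, at 78.6 ± 16.7, 92.6 ± 4.63 and 83.8 ± 21.1 CPM.

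The genes whose levels followed Gpx1 most closely over the 9 libraries were Cox7c, Park7, Grcc10, Atp5j2 and Atpif1. Likeness was the root mean square difference of centred log2(CPM + 1), which was 0.207 for Cox7c and 0.253 for Atpif1. Cox7c, a cytochrome c oxidase subunit, was at 0.893, 2.26 and 4.92 CPM in control, 1.29, 1.57 and 1.09 in stress, and 1.48, 4.08 and 6.51 in KYZY. Like Gpx1 it was highest in KYZY 3 and control 3. For Sod1 the closest genes were Tmem41b, 1700091H14Rik, Satb1, Gng5 and Rab3a, with differences of 0.107 to 0.134. Of these, 1700091H14Rik was scarce, at 0.316 to 1.52 CPM, where this scale compresses differences, so its likeness to Sod1 says little. Tmem41b was at 351 CPM in control 1 and 370 in stress 3, the libraries in which Sod1 was highest too, and at 196 to 243 in the other 7.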

How the data were processed

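RNA of 9 oocyte libraries was amplified with SMART-Seq v4 and cut with Tn5 transposase, per the labels' protocols, without molecular identifiers or strand. Per gene, the authors deposited expected counts as whole numbers with no scaling to depth, a unit read from the values. The submitters' processing notes name bcl2fastq 2.20, Trim Galore, HISAT2, StringTie, DESeq2, GRCm38 and mm10, with no roles. In control 1, 401 genes had a value of 4 and 53 a value of 3, so a read pair appeared to be worth about 4 counts. Intervals and floors cover counting error or library spread only.

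Counts were rounded and fitted in R 4.3.3 with edgeR 4.0.16 (TMM scaling, filterByExpr with a minimum count of 10, robust quasi-likelihood, 6 residual degrees of freedom, 13890 genes, threshold 0.05). A standard error is the log2 fold change divided by the root of F. DESeq2 1.42.0, limma 3.58.1 voom, other filters and scalings, a replicate block, a length offset and left-out libraries were alternatives. The fit was tested on simulated data. Lengths came from GENCODE M21 transcripts with a RefSeq entry, and 98.65% of kept genes had a length. Of 24736 symbols, 97.33% had a RefSeq entry, all 9 members included.

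The members and gene lists were chosen with earlier results of these data known. All 9 members are named in every comparison; of each list, the 2 genes of highest mean CPM and any that pass are named, and the 5 genes most alike to the member with the largest SD of log2(CPM + 1) and the one of highest CPM.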

Additional observations from a re-analysis of the deposited data

How the results depend on the processing

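No member passed in any comparison under any alternative; the lowest edgeR, DESeq2 or limma adjusted p of a member was 0.169. Of 513 member values under alternatives, 484 kept their sign and 29 did not; in 12 of 27 member comparisons no sign turned under the 19 alternatives run. The number of all genes that pass, 0 in the edgeR fit of 9 libraries, depended on the setting. The DESeq2 Wald test called 23 genes in stress against control, 12 in KYZY against stress and 1 in KYZY against control. Limma voom with library weights called 2, 1 and 0, and a fit of only the 2 groups called 0, 1 and 0. Leaving out 1 library gave 0 to 2, 0 to 1 and 0 to 3 genes, and 0 to 4 over the 3 groups, all above 0 only without control 3. Without the 4 libraries with Tnfaip6 counts 148, 115 and 119 genes were called, and 211 over the 3 groups. The cause was not tested.

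Signs turned as follows, in log2 units. Without the 4 libraries with Tnfaip6 counts, Cat was at 0.96 in stress against control. In KYZY against stress Gpx4 was then at -0.28, Gclm at -0.54 and Cat at -0.54. In KYZY against control Gpx4 was at -0.72, Gclm at -0.62, Gss at -0.09 and Sod2 at -0.43. Voom gave 0.25 for Cat in stress against control and -0.33 for Gclc in KYZY against stress, and the length offset 0.08 for Sod1 in stress against control. With 1 library left out, stress against control ranged from -0.06 to 0.48 for Gclc (negative without stress 2), -0.32 to 1.05 for Gsr (negative without stress 3), -0.24 to 0.25 for Sod1 (positive without control 1 or stress 2), -0.03 to 0.30 for Sod2 (negative without control 2) and -1.90 to 0.54 for Cat, which was positive only without control 3. KYZY against stress ranged from -0.17 to 0.31 for Gclc (negative without stress 3, KYZY 1 or KYZY 3), -0.10 to 1.29 for Gsr (negative only without KYZY 3) and -0.53 to 0.12 for Sod2 (positive without KYZY 1 or KYZY 2). KYZY against control ranged from -0.01 to 0.97 for Gpx4 (negative without KYZY 3), -0.32 to 0.33 for Gclm (negative without control 2 or KYZY 2) and -0.41 to 0.25 for Sod2 (negative without control 2 or KYZY 3). Some other values moved by over 1.5-fold without turning, and not all are given here. With voom, Gss was at 2.26 in KYZY against stress and Cat at 1.98 in KYZY against control. Without the 4 libraries with Tnfaip6 counts, Gss was at 0.92 in KYZY against stress. With the replicate block, Cat was at -0.44 in stress against control. Gpx1 was at 0.90 in KYZY against stress without KYZY 3. In KYZY against control it was at 0.08 without KYZY 3 and 1.53 without control 3, and in stress against control at -0.20 without control 3. Cat was at 2.80 without stress 2 and 1.37 without KYZY 3 in KYZY against stress, and at 2.57 without control 3 and 0.23 without KYZY 3 in KYZY against control. By coding length the mean levels per kb were 0.638 for Gclc, 52.2 for Gclm, 1.49 for Gsr, 187 for Sod1 and 39.5 for Sod2.

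Control, stress and KYZY libraries share replicate numbers. Deviations from group means correlated over 0.1 in 7 of 9 same-numbered pairs (-0.146 to 0.559), and 7 of 9 libraries correlated best with their own number, a hint from the data and not the design. All libraries numbered 3 held Tnfaip6 counts, as did KYZY 2. KYZY 2 was at 0.279 with control 3 and 0.326 with stress 3, but at -0.144 with control 2 and -0.146 with stress 2. Control 1 and stress 2, both without Tnfaip6 counts, were at -0.106. Whether the number or the Tnfaip6 counts went with the correlations was not tested. With the replicate block 0 members and 0 genes passed in all 4 comparisons, as without it, and 1 member value turned its sign, Sod2 in KYZY against control, at -0.04. Cat, Gss, Gclc and Gsr had the fewest counts, 6 to 273 per library. With counts divided by 4, Cat was at 1.90 and Gss at 1.63 in KYZY against stress.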

Other observations

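Of the 100 kept genes in the 6 lists, 1, 3 and 3 had an unadjusted p under 0.05 in the edgeR fit of stress against control, KYZY against stress and KYZY against control. Over all genes the shares were 2.69%, 3.98% and 2.74%, so these counts are near the background. These genes are named because of their values, and none passed after adjustment. Nfe2l1, a transcription factor related to NRF2, was at 66.9, 58.8 and 59.8 CPM in control 1, 2 and 3, at 44.1, 41.3 and 42.2 in stress, and at 50.3, 41.9 and 58.7 in KYZY. Control and stress did not overlap for it (log2 fold change -0.54, SE 0.183, adjusted p = 1.00). Nfe2l2, which encodes NRF2 itself, was at 3.14, 2.18 and 2.94 CPM in control, 2.11, 2.91 and 2.50 in stress and 3.71, 3.38 and 4.59 in KYZY. Its log2 fold change in KYZY against stress was 0.63 (SE 0.283, edgeR adjusted p = 0.935). Nqo1, a quinone reductase and a known NRF2 target, was at 3.67, 5.37 and 4.05 CPM in control. It was at 3.43, 3.59 and 2.45 in stress, also below all control libraries, and at 2.87, 2.52 and 2.28 in KYZY. Its log2 fold change in KYZY against control was -0.77 (SE 0.281, edgeR adjusted p = 0.996). Gsta4, a transferase for lipid aldehydes, was at 12.1, 13.6 and 12.3 CPM in control, 10.7, 9.67 and 8.86 in stress and 10.4, 6.83 and 9.77 in KYZY, with control above all 6 other libraries.

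Gpx7, a peroxidase of the endoplasmic reticulum, was at 0.202 CPM in stress 3, 0.998 in KYZY 2 and 1.75 in KYZY 3 and at 0 in the other 6 libraries; those 3 libraries also had Tnfaip6 counts, and control 3, the fourth with Tnfaip6 counts, was at 0. Glrx3, a glutaredoxin of iron-sulfur cluster delivery, was at 0.0981, 0.715 and 0.388 CPM in stress and 1.25, 1.48 and 1.55 in KYZY. In control 1, 2 and 3 it was at 0.347, 0.602 and 2.16. Its value in stress 1 lay under the floor of that library, 0.147 CPM. Mthfd2l, a mitochondrial folate enzyme, had counts in 3 libraries, with 0.470 CPM (KYZY 2), 0.326 (KYZY 3) and 0.169 (control 3).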
